A study of Mus musculus with 15 samples.

Results

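The subject is 93 genes that carried a differential BAZ1B region in their body or promoter in mouse nucleus accumbens after cocaine, out of 110 such genes in the table analysed. They were chosen from the gene column of that table by annotation alone: a gene body or promoter class, on chromosomes 1 to 19, without a dense block of regions near the start of chromosome 11, and without 15 adhesion, guidance, calcium and receptor genes treated apart. The rule left 95 regions of the 381 listed, since Rbms3 and Cep112 each held 2. No expression was measured, so the cell types in the tissue could not be checked against their markers.

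BAZ1B was profiled by chromatin immunoprecipitation and sequencing (ChIP-seq) in bilateral punches of the nucleus accumbens, a part of the ventral striatum that serves reward. The animals were male C57BL/6J mice of 7 to 8 weeks with no genetic change. The cocaine group received cocaine hydrochloride in saline once a day at 20 mg/kg into the peritoneum, and the control group received saline in the same way. How many days they were injected is not given in the sources used here. Punches of 5 to 10 mice were pooled for each of the 3 libraries of a group, so a library is a pool and not 1 animal. The 9 samples of a social defeat experiment in the same series were not analysed here.

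BAZ1B, also named WSTF, is a bromodomain protein that partners with the ISWI ATPase SMARCA5 in the WICH chromatin remodeling complex. Such remodelers use ATP to slide and space nucleosomes, and the complex is known for roles at replicating and transcribed chromatin. It carries a tyrosine kinase activity toward a histone H2A variant in the DNA damage response.

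The table lists regions that its authors had already selected as different between these same 6 libraries. Direction and fold of a region are therefore descriptions of what was selected, and tests on the same libraries add no independent evidence. The values are normalized read counts per region. In each library the values step by a fixed amount, the worth of 1 read, and that amount lay between 0.551 and 1.95 normalized reads. Cocaine libraries 1 and 3 had 28.5% and 28.2% of the depth of the deepest library, and the other 4 had 62.1% to 100%, so 1 read weighs most in those 2. Libraries are numbered in the order listed.

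Of the 95 regions, 60 in 58 genes were listed as higher in cocaine (gained) and 35 in 35 genes as lower (lost). Among all listed regions 58.5% were gained and 41.5% were lost, and the rule took its genes from that table, so nothing is read from the split. The ranges of the 3 cocaine and the 3 saline libraries did not overlap at 93 of the 95 regions, against 91.9% of all regions. The exceptions were Cdk5rap2 and 2210408I21Rik, the only regions of these genes with a group mean of 60 or more. Apart from those 2, the gained regions had a median of 20.0 normalized reads in cocaine and 7.31 in saline, with a median fold of 2.67. The lost regions had 4.37 in cocaine and 16.5 in saline, with a median fold of 3.92. Over all gained and all lost regions of the table these folds were 2.59 and 3.80.

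Few reads stood behind each value. The median gained region held 42 cocaine and 35 saline reads, and the median lost region 9 and 77. No cocaine library was empty at a gained region, but at least 1 was listed at 0 at 12 of the 35 lost regions, library 1 at 7 and library 3 at 6. Over all 158 lost regions of the table at least 1 was listed at 0 at 43, library 1 at 22 and library 3 at 25. Library 2, the deepest cocaine library, was listed at 0 nowhere among the 35. It was the highest of the 3 at 17 of the 35, and at 81 of the 158.

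The genes encoded proteins of many kinds, and each of 8 role groups held regions of both directions. The groups were drawn up with the direction of each gene known, so they order the text and are not tested.

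**Figure D1:**
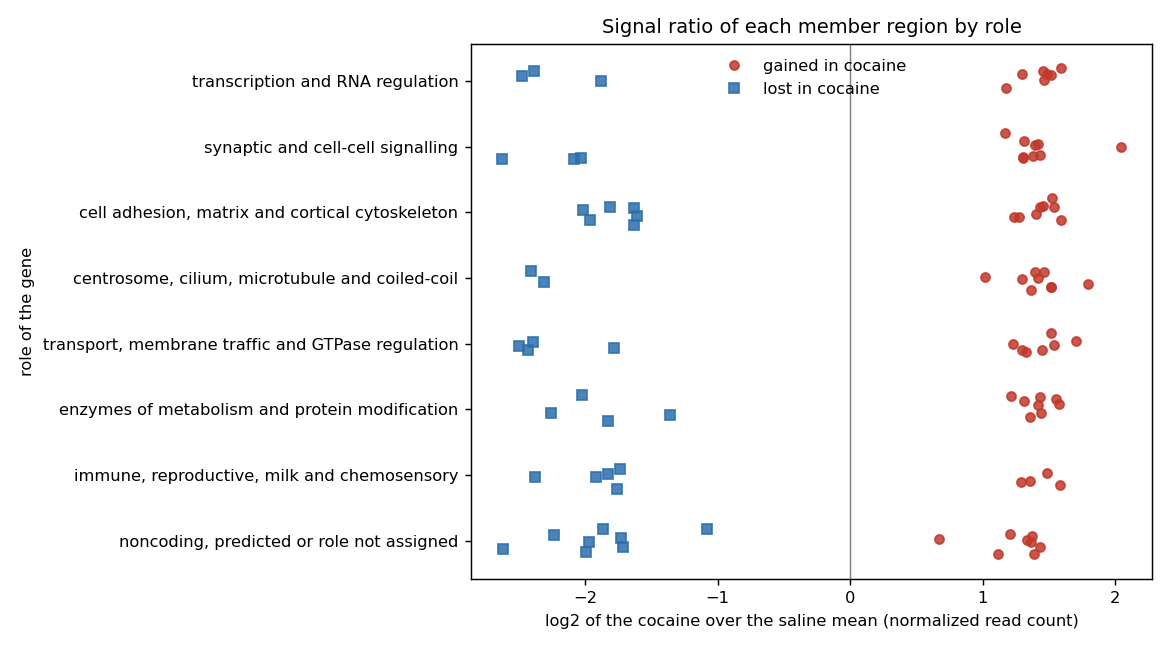
Each point is 1 of the 95 regions, placed by the log2 of its cocaine over its saline mean normalized read count (horizontal axis) and by the role of its gene (vertical axis, 8 groups; the vertical scatter within a group has no meaning). Gained regions (circles) sit between 0.67 and 2.05 and lost regions (squares) between -2.63 and -1.08, in all 8 groups.

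Genes of transcription and RNA regulation held 7 gained regions in 6 genes and 3 lost regions. Nfib encodes a nuclear factor I protein that acts in the development of forebrain neurons and glia. Its region (chromosome 4, 82085301 to 82086500, mm9, as for all coordinates of regions here) had 23.2, 23.1 and 19.5 normalized reads in cocaine and 3.44, 9.05 and 9.37 in saline. All 3 cocaine values exceeded every saline value, and the fold was 3.01. Rbms3, a gene of an RNA-binding protein of single-stranded nucleic acid type, was the one gene with 2 regions in the same transcript model. The first had 32.9, 18.7 and 39.1 in cocaine against 12.9, 8.45 and 11.6 in saline. The other, 410.7 kb nearer the gene start (chromosome 9, 117155501 to 117156500), had 17.4, 17.8 and 17.6 against 3.44, 6.03 and 9.37. Both were gained, with folds of 2.75 and 2.80, and the second had nearly the same value in each cocaine library.

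Nuclear receptors stood on both sides. Esrrg, which encodes an orphan estrogen-related receptor active in neuronal and muscle metabolism, had 19.3, 15.1 and 23.5 in cocaine against 3.44, 9.05 and 7.72 in saline. Rora encodes a retinoid-related orphan receptor required for cerebellar Purkinje cells and tied to the circadian clock. It had 1.93, 2.66 and 7.82 in cocaine against 14.6, 15.1 and 15.99 in saline, lower in every cocaine library, with a fold of 3.68. The remaining gained members of the group were Nfat5, the osmotic stress factor, E2f2, a cell cycle factor, and the zinc finger gene Zfp39, at folds of 2.26 to 2.77. The remaining lost members were the zinc finger gene Zfp407, at a fold of 5.58, and Spats2l, at 5.24.

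Signalling genes held 9 gained and 3 lost regions. Anks1b, whose product sits in the postsynaptic density, had the largest fold of the gained regions, 4.14. Its region (chromosome 10, 90001001 to 90002300) had 27.1, 18.7 and 25.4 normalized reads after cocaine and 1.72, 6.64 and 8.82 after saline. The lowest saline value rested on 2 reads, and without that library the fold was 3.07. Pam encodes the enzyme that amidates neuropeptides at their C terminus, and its region had 21.3, 22.2 and 15.6 in cocaine against 9.46, 7.24 and 7.17 in saline. Nrg3, an ErbB4 ligand gene expressed in brain, had 19.3, 17.8 and 25.4 against 5.16, 9.65 and 8.27. At each of these 3 genes the cocaine libraries lay above all saline libraries.

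The other gained signalling genes had folds between 2.25 and 2.67. They were Astn2, a gene of glia-guided neuronal migration, Sphkap, which anchors protein kinase A, and the receptor genes Trhr and Ptgfr, for thyrotropin-releasing hormone and prostaglandin F. Pdgfd, a platelet-derived growth factor gene, and Ros1, a receptor tyrosine kinase gene, completed them. Among the lost ones was Lrp1b, a giant endocytic receptor gene of the LDL receptor family, with 0, 7.10 and 1.95 in cocaine against 18.1, 18.1 and 19.9 in saline. Its saline libraries agreed closely, as they did at most lost regions of the table, whereas its cocaine libraries spread from no read to 8 reads. Cdk14, a cyclin-dependent kinase gene of the Wnt pathway, and Ppp2r3a, a regulatory subunit gene of protein phosphatase 2A, were 4.24-fold and 4.10-fold lower.

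Adhesion, matrix and cortical cytoskeleton genes held 8 gained and 6 lost regions. Tln2 encodes a talin, which couples integrins to actin, and had 19.3, 17.8 and 25.4 in cocaine against 6.02, 10.3 and 4.41 in saline. Col19a1, a collagen gene expressed by some interneurons, had 21.3, 19.5 and 21.5 against 4.3, 7.24 and 9.93. Both regions had cocaine values well above the saline range. The other gained genes, at folds of 2.36 to 2.88, were Tns3 (a tensin), Kirrel (a nephrin-like adhesion protein), Mmp16 (a membrane metalloproteinase), Diap3 (a formin, now named Diaph3), Xirp2 (an actin-binding muscle protein) and Crb1 (a polarity protein of the retina).

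Among the lost genes of this group, Csgalnact1 encodes an enzyme that starts chondroitin sulfate chains, which occur in perineuronal nets. Its region had 3.87, 6.22 and 3.91 in cocaine against 19.8, 18.1 and 18.8 in saline, a fold of 4.05 with little spread in either group. Ltbp1, which holds latent TGF-beta in the matrix, and Adamts9, a proteoglycan-cleaving protease gene, were 3.10-fold and 3.06-fold lower. 9930013L23Rik, now named Cemip and known for hyaluronan breakdown, was 3.52-fold lower, and Mamdc2 was 3.90-fold lower. Utrn, which encodes the dystrophin relative utrophin, had 5.80, 3.55 and 5.86 against 15.5, 15.7 and 15.99.

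Centrosome, cilium, microtubule and coiled-coil genes held 9 gained regions in 8 genes and 2 lost ones. Cep112, a centrosomal protein gene, held 2 gained regions 121.5 kb apart that the authors assigned to different transcripts. The first had 27.1, 22.2 and 19.5 in cocaine against 6.02, 9.05 and 11.6 in saline, and the second 17.4, 15.99 and 23.5 against 6.88, 7.24 and 7.17. Neither had overlapping groups. Agbl4 encodes a carboxypeptidase that trims glutamate from tubulin, and with 25.1, 15.99 and 15.6 against 3.44, 9.05 and 3.86 it had a fold of 3.47, second to Anks1b among the gained regions.

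Cdk5rap2, which recruits microtubule nucleating complexes to the centrosome and is mutated in a human microcephaly, behaved differently from the rest. Its region (chromosome 4, 70038301 to 70040200), the longest of the 95, had 297.8, 120.8 and 302.9 in cocaine against 143.7, 123.7 and 89.3 in saline. Cocaine library 2 lay inside the saline range, so the groups overlapped. 2210408I21Rik showed the same arrangement at 150.8, 70.2 and 148.5 against 83.4, 83.2 and 65.1. At both, the 2 libraries of least depth were the high ones. The part of depth in this was not tested. The lost members of the group were Efcab2 and Spata17, at folds of 4.96 and 5.31, and the remaining gained ones were Tmem67, which encodes a transmembrane protein of primary cilia, Ccdc138, Ccdc141, Ccdc178 and Efcc1.

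Transporters, membrane traffic and GTPase regulators held 7 gained and 4 lost regions. Slc9a9 encodes an endosomal sodium-proton exchanger, and its cocaine libraries were nearly equal at 17.4, 16.9 and 17.6, against 2.58, 7.84 and 5.51 in saline. Slc25a24, a mitochondrial ATP-magnesium and phosphate carrier gene, had 21.3, 20.4 and 21.5 against 6.02, 9.05 and 6.62. The folds of these genes were 3.26 and 2.91, and Slc7a6, an amino acid transporter gene, followed at 2.86. Tbc1d9 and Elmod2, regulators of small GTPases with regions 102.2 kb apart on chromosome 8, were gained at folds of 2.73 and 2.34, as were the ESCRT-I gene Mvb12b at 2.46 and C2cd2 at 2.51. In the authors' deposited table, Elmod2 alone of the 95 regions missed an adjusted p of 0.05, at 0.1002.

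Elmo1, which partners DOCK proteins to activate Rac in engulfment and migration, had 0, 7.10 and 1.95 in cocaine against 17.2, 18.1 and 15.99 in saline. Abca13, a large lipid transporter gene, had 0, 5.33 and 3.91 against 16.3, 16.3 and 15.99. In both, cocaine library 1 held no read while the saline libraries were close together. Atp9b, of the P4-ATPase family, was 3.45-fold lower with less spread in cocaine, at 5.80, 3.55 and 3.91. Sel1l2, a relative of an endoplasmic reticulum degradation factor, was 5.40-fold lower.

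Enzymes of metabolism and protein modification held 8 gained and 4 lost regions. The gained genes had folds of 2.33 to 2.99. They included Mettl8, a methyltransferase gene of mitochondrial tRNA, Mmaa, a gene of cobalamin metabolism, Camkmt, which methylates calmodulin, Txnrd3, a thioredoxin reductase gene, Acot12, an acyl-CoA thioesterase gene, and Cpa6, a carboxypeptidase gene, with Nipsnap3b and Eepd1. Mettl8 had its cocaine values spread most widely among them, at 30.9, 15.1 and 15.6. The lost genes were Rpe65, the retinoid isomerase of the visual cycle, Gnpda2, a glucosamine-6-phosphate deaminase gene, Sgpp2, a sphingosine-1-phosphate phosphatase gene, and Akr1c6, an aldo-keto reductase gene. Their folds ran from 2.57 at Akr1c6 to 4.79 at Rpe65.

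Genes of immune, reproductive, milk and chemosensory families held 4 gained and 5 lost regions, and most belong to families with near-identical copies. How reads that match several copies were handled is not given in the sources used here, so which copy a region belongs to is uncertain. The oogenesins Oog4 and Oog3, oocyte genes of a cluster on chromosome 4, were both lost with regions 723.6 kb apart. Oog4 had 0, 3.55 and 5.86 in cocaine against 17.2, 15.7 and 15.99 in saline, and Oog3 had 3.87, 5.33 and 9.77 against 20.7, 21.72 and 20.96. Klra15, a natural killer cell receptor gene, was 3.78-fold lower, and Tas2r131, a bitter taste receptor gene, 3.56-fold lower. Skint6, of a family that selects skin T cells, Cd226, a lymphocyte adhesion receptor gene, and Csn1s1, a casein gene, were gained at folds of 3.00, 2.80 and 2.45.

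The remaining 16 regions lay in genes that are noncoding, predicted or without an assigned role here, 8 gained and 8 lost. Of the 93 genes, 8 had a noncoding transcript accession. Rmst, a long noncoding RNA gene of neural differentiation, was lost with 9.67, 2.66 and 1.95 in cocaine against 14.6, 16.3 and 16.5 in saline. Gm20757, a long noncoding RNA gene 238.7 kb away on chromosome 10, was gained with 23.2, 21.3 and 27.4 against 8.6, 6.64 and 12.7. These neighbours therefore went in opposite directions. The noncoding D930032P07Rik had values close together in each group, 3.87, 5.33 and 5.86 against 19.8, 19.9 and 19.3, and a fold of 3.92. Bcas3 had 0, 7.99 and 0 in cocaine against 14.6, 18.1 and 16.5, the one region with 2 cocaine libraries listed at 0. 4931408C20Rik had the most signal of the lost regions, 34.8, 27.5 and 19.5 against 57.6, 54.3 and 61.2. Prr16 was 4.72-fold lower, 5730522E02Rik 3.66-fold, 9330182L06Rik (now Elapor2) 3.99-fold and 4930480G23Rik 3.29-fold, while Dip2c, Gm5512, Gm6040, 4930438E09Rik, 4930590J08Rik and D130009I18Rik were 2.16-fold to 2.71-fold higher.

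**Figure D2:**
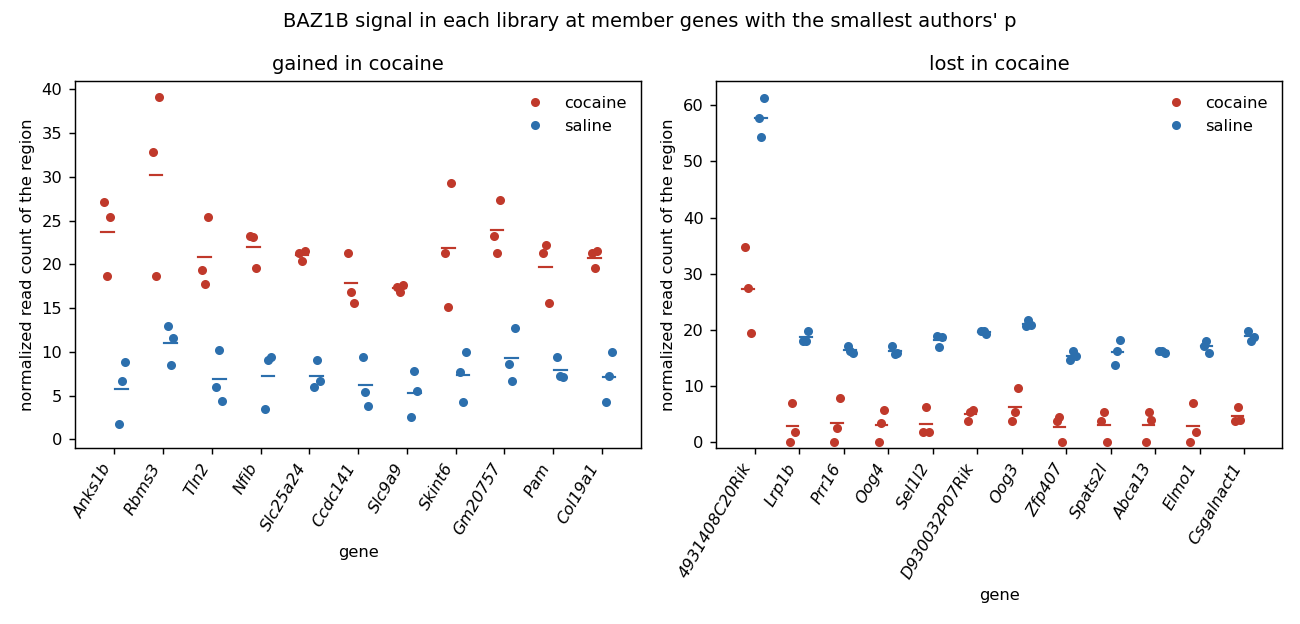
Normalized read counts (vertical axis) in each of the 3 cocaine (red) and 3 saline (blue) libraries at the genes (horizontal axis) with the smallest authors' p, with bars at the group means. Of the 12 gained genes, Cdk5rap2 is left out for its scale (120.8 to 302.9 in cocaine), and at the other 11 and the 12 lost genes no cocaine library reaches into the saline range.

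Of 17 lists of gene families given by symbol patterns, 14 held members. Lists of ion channels, of chromatin and DNA repair genes, and of immediate early and dopamine signalling genes held 0. The 15 genes treated apart include channel genes (Ryr3, Itpr1, Nalcn, Grin3a and Gabrb1), so the rule itself removed such genes and nothing is read from the absence of ion channels. Lists match symbols only and can miss genes of their kind. The list of centrosome, cilium and cell cycle genes had 5 gained regions in 4 genes and 0 lost. Its symbol patterns caught only Cep112, Ccdc138, Ccdc141 and Ccdc178. They missed the gained Cdk5rap2 and Tmem67 and the lost Efcab2 and Spata17, and the wider role group above held 9 gained and 2 lost regions. Growth factor ligands and receptor kinases had 3 gained (Nrg3, Ros1 and Pdgfd) and 0 lost, the ubiquitin and protease list 0 gained and 2 lost (Sel1l2 and Adamts9), and the multicopy reproductive and immune families 1 gained and 3 lost. The protease patterns missed the gained Mmp16, Cpa6 and Agbl4, a metalloproteinase gene and carboxypeptidase genes, so gained protease genes were not absent. Solute carriers and transporters had 3 gained and 2 lost, transcription factors 3 and 2, cytoskeleton and matrix genes 3 and 1, small GTPase regulators 2 and 1, and the list of noncoding and predicted genes 7 and 6. The 6 lost include 9930013L23Rik and 9330182L06Rik, which match its symbol pattern but are the protein-coding Cemip and Elapor2. The lost 4931408C20Rik and the gained Gm6040, 2210408I21Rik and 4930590J08Rik are annotated as protein-coding too. The list of kinases, phosphatases and phosphodiesterases had 2 gained, Cdk5rap2 and Camkmt, which match its symbol patterns but encode a centrosomal protein and a methyltransferase, and 2 lost, Cdk14 and Ppp2r3a. RNA-binding genes had 2 gained regions, both in Rbms3, chemoreceptors 1 of each, synaptic proteins 1 gained (Anks1b) and the LDL receptor family 1 lost (Lrp1b). For comparison, 58.5% of all listed regions were gained, and no list was tested.

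The authors classed 86 of the 95 regions as gene body, as they did 119 of all 130 genic regions of the table, 7 as within 3 kb of the transcription start site (TSS) and 2 as within 1 kb. By midpoint, measured along the strand from the TSS to the transcript end, 34 lay in the first of 3 equal parts of the gene, 30 in the middle part and 26 in the last. Another 2 lay upstream of the TSS and 3 past the end of the gene. Gained regions were spread as 19, 22 and 16 over these parts of the gene and lost ones as 15, 8 and 10. Their medians stood at 54.3% and 42.5% of the way along the gene. At the 15 genes treated apart the order was the opposite, 43.7% for gained and 62.7% for lost regions, and the median of all their regions was 55.4%. Over all 130 genic regions of the table the medians were 44.3% for gained and 57.4% for lost. Those 130 include these members and 20 regions of the single chromosome 11 block left out here. No test was run over genes, which are not replicates.

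Distances from the TSS varied widely. A distance under 10 kb from the TSS was found at 19 regions and one under 100 kb at 59. Among gene body regions, the nearest to a TSS were those of Gnpda2 at 3.72 kb, Nipsnap3b at 5.01 kb, Csgalnact1 at 5.09 kb and Efcc1 at 5.44 kb. At the far end, the Lrp1b region lay 784 kb into its gene. The annotated classes were generous at the ends: the Oog4 region, classed as gene body, had its midpoint 565.5 bases past the end of the transcript, and that of Mmp16 519.5 bases past it. The region of Tas2r131, a gene of 933 bases, was classed as promoter but lay 928.5 bases beyond the other end of the gene. Eepd1, Csn1s1 and 4930480G23Rik had the midpoints of their regions close before the end of the gene.

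**Figure D3:**
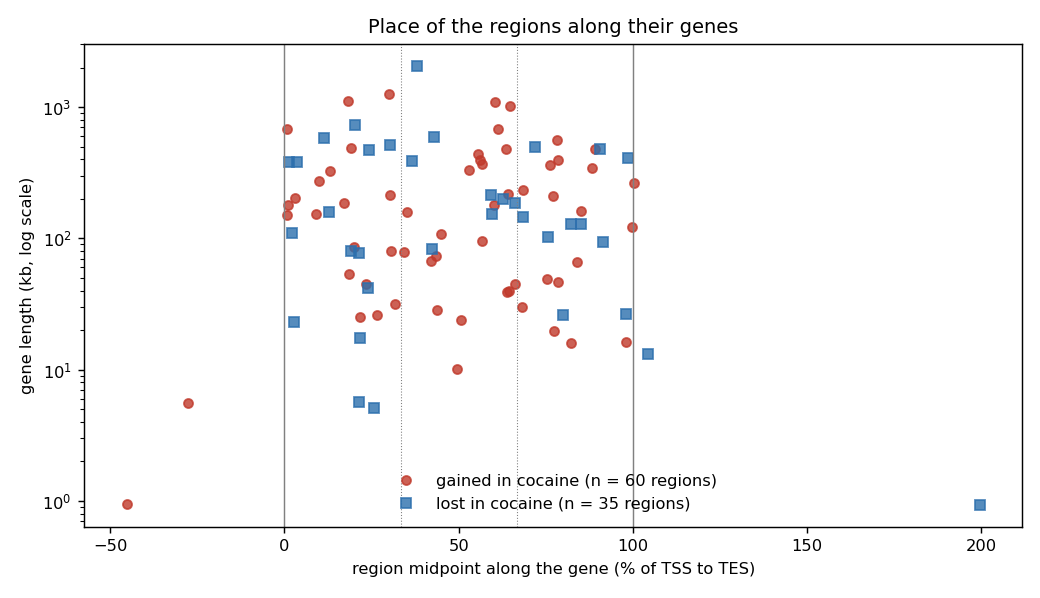
Each point is 1 of the 95 regions, placed by its midpoint as a percentage of the way from TSS to transcript end (horizontal axis; solid lines at 0 and 100%, dotted lines between its 3 equal parts) and by the length of its gene (vertical axis, kb, log scale). Gained (circles) and lost (squares) regions are spread along genes of 0.933 kb to 2057 kb, and the point near 200% is Tas2r131.

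The genes were mostly long. The median length was 149 kb, with the middle 50% of genes between 44.6 and 378 kb, and 54 of 93 genes were longer than 100 kb while 19 were shorter than 30 kb. The 58 gained genes had a median of 151 kb and the 35 lost genes 146 kb. The 15 genes treated apart had a median of 437 kb, and those were picked by function. Genes above 1 Mb were Lrp1b at 2.06 Mb, Agbl4 at 1.26 Mb, Nrg3 and Anks1b at 1.104 and 1.099 Mb, and Astn2 at 1.02 Mb, the first lost and the others gained. The shortest were the receptor genes Tas2r131 and Olfr1105, then Oog3 and Gm6040. No length-matched comparison was made. The length of Klra15 in the authors' annotation, 409 kb, spans much of its gene cluster.

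Promoter-class regions belonged to 9 genes, 4 gained and 5 lost, and in 1 of them, Olfr1105, the region covered the annotated TSS. The RefSeq starts of Olfr1105 and Tas2r131 are at the codon ATG, so where their transcription starts is not known here. Olfr1105, an odorant receptor gene, had 30.9, 15.1 and 17.6 normalized reads in cocaine against 12.0, 7.24 and 5.51 in saline, and its region ran from position -924 to position 75 relative to the start. The high value of cocaine library 1 set much of its fold of 2.57, which was 1.98 without that library. Gm6040 was gained upstream, with a midpoint 1550.5 bases before the start and values of 19.3, 18.7 and 23.5 against 7.74, 7.24 and 7.72. The regions of the other 7 lay downstream of the start. Ros1 and Crb1 were gained at midpoints 1049.5 and 2052.5 bases after it, and Akr1c6, 4931408C20Rik, Oog3, Tas2r131 and Sgpp2 were lost at 612.5, 1204.5, 1303.5, 1861.5 and 2480.5 bases.

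The start sequences of the 2 genes in the 1 kb class, the gained Olfr1105 and the lost Akr1c6, are shown because they are the promoter members nearest a start. They are RefSeq sequences of GRCm38.p6, from 250 bases before the start to 50 after it, read 5′ to 3′ on the strand of the gene. Olfr1105 lies on the minus strand at chr2:87034170-87034469 and Akr1c6 on the plus strand at chr13:4434093-4434392, both in GRCm38.p6 and not comparable with the mm9 positions. Capitals mark TATAAA and CCAAT on either strand, which do not overlap each other, and GGGCGG was searched too and found in neither.
Olfr1105: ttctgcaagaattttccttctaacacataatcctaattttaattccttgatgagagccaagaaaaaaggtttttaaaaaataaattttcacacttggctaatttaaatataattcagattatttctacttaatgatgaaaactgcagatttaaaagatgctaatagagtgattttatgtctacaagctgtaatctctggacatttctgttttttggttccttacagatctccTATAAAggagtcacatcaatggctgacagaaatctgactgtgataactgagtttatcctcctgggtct
Akr1c6: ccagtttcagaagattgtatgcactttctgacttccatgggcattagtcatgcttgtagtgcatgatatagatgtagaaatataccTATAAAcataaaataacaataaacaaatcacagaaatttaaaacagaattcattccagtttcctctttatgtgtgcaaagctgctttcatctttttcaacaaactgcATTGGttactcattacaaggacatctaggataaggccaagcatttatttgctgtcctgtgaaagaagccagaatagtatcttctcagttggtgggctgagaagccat
The Olfr1105 window lies wholly inside its BAZ1B region if the start is the same in both builds, and the Akr1c6 region begins 113 bases after its start and so holds none of the window. In Olfr1105 the annotated start is the codon ATG, so positions are counted from there and not from a known transcription start. TATAAA begins at position -18 from that codon. In Akr1c6 TATAAA begins at position -164 from the start and CCAAT (on the opposite strand) at -57. Of all 32851 promoter windows of the RefSeq table, 13.6% hold TATAAA, 37.4% CCAAT and 35.7% GGGCGG on either strand. GC content was 31.3% in Olfr1105 and 36.0% in Akr1c6, from 31.3% to 72.0% over the 9 promoter-class genes, and the median of all windows was 52.7%. Such matches describe letters only and are not binding sites.

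Members lay on 18 of the 19 autosomes, with none on chromosome 12 and most on chromosome 4, where 9 were gained and 3 lost. There were 7 pairs of neighbouring regions less than 1 Mb apart, of which 4 shared a direction and 3 did not. The shared ones were the pairs within Rbms3 and Cep112, Tbc1d9 with Elmod2, and Oog4 with Oog3. The opposite ones were Rmst (lost) with Gm20757 (gained), Spata17 (lost) with Esrrg (gained) 935.8 kb apart, and 4930590J08Rik (gained) with Adamts9 (lost) 850.1 kb apart. Only the Xirp2 region had any other listed region within 100 kb.

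In the group with more signal the libraries lay close together. At lost regions the median SD of the 3 saline libraries was 1.06 normalized reads, and the root of the variance that read counting gives at the same means had a median of 3.33. The saline SD was below that root at 34 of the 35 lost regions, and at 153 of all 158 in the table. At gained regions outside the 2 high-count ones the corresponding cocaine values were 3.41 and 5.64. There the cocaine SD was below the root at 50 of 58 regions, and at 167 of all 223 in the table. Close values in that group are therefore not particular to the genes for which they are given above. An SD of 3 values tends to fall below the root of the true variance, and counting error leaves out differences between pools, so the comparison was not tested. The smallest saline SDs at lost regions were those of Abca13 and Utrn, at 0.189 and 0.257. Every cocaine library had at least 9, 17 and 8 reads in listed order at every gained region, and every saline library at least 16, 25 and 28 at every lost one, and the same minimum held over all gained and all lost regions of the table. By what thresholds the authors selected regions is not stated.

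**Figure D4:**
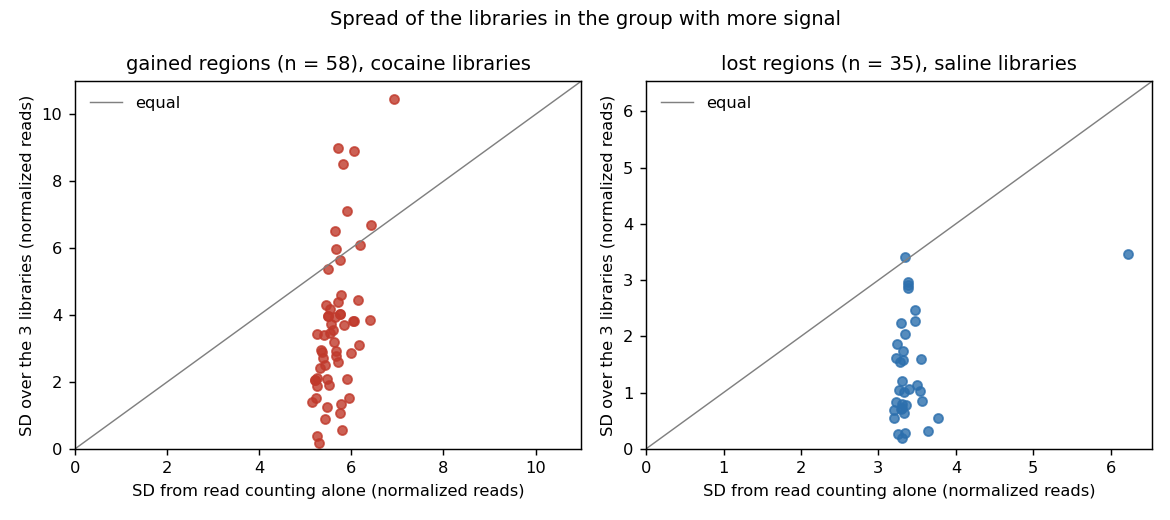
For each region, the SD of the 3 libraries in the group with more signal (vertical axis, normalized reads) is set against the SD that read counting alone would give at that mean (horizontal axis, normalized reads), with a line where both are equal. The points have a median height of 3.41 for gained regions in cocaine (left, 58 regions without the 2 high-count ones) and of 1.06 for lost regions in saline (right, 35 regions).

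Because the lost regions held so few cocaine reads, single libraries moved their folds. Leaving out 1 library moved the fold of the group means by over 1.5 times at 16 of 35 lost regions and at 0 of 60 gained regions. These counts depend on the cutoff. The lost Zfp407 (5.58 to 3.72) and Gnpda2 (4.06 to 2.71), without cocaine library 3, lay at the cutoff and were not counted. The gained Agbl4 (3.47 to 5.18 without saline library 2) lay just under it. With all libraries, the folds of the pooled reads at those 16 genes ran from 3.18 at Mamdc2 to 5.05 at Prr16. Without cocaine library 2, the pooled reads gave 19.3-fold less signal at Lrp1b (1 cocaine read left, 95% counting interval 3.38 to 772), 17.5-fold at Elmo1 (1 read, 3.06 to 702) and 16.7-fold at Spata17 (1 read, 2.90 to 666). At Bcas3 no cocaine read was left, and the lower bound of the same interval was 4.52-fold less. The other genes that moved without library 2 were Sel1l2 (2 reads, 9.33-fold, 2.503 to 78.3), Spats2l (2 reads, 8.44-fold, 2.26 to 70.9), Abca13 and Rpe65 (2 reads, 8.33-fold, 2.23 to 70.0 each), Cdk14 (2 reads, 8.11-fold, 2.16 to 68.2) and Mamdc2 (3 reads, 6.07-fold, 2.01 to 30.04). Without library 3, the pooled fold was 8.98 at Prr16 (3 reads, 2.96 to 44.5), 6.65 at Oog4 (4 reads, 2.49 to 25.04) and 6.29 at Rora (4 reads, 2.35 to 23.7). Without library 1 it was 6.89 at 9930013L23Rik (4 reads, 2.59 to 25.9), 6.54 at Rmst (4 reads, 2.45 to 24.6) and 5.58 at Ppp2r3a (5 reads, 2.29 to 17.7). The pooled fold itself moved by over 1.5 times at 13 of the 15 genes that had one, and by less at Ppp2r3a (from 4.08) and Oog4 (from 4.98). Intervals cover counting error only.

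With all libraries, the pooled reads bounded the lost folds loosely from above. The 95% interval was 2.26 to 10.2 at Lrp1b, from 9 reads in cocaine and 87 in saline, and 1.96 to 7.64 at Csgalnact1, from 11 and 87. At gained regions with more balanced reads it was narrower, 2.20 to 5.85 at Anks1b from 48 and 29 reads, and 1.65 to 4.20 at Pam from 44 and 36. Only 2 lost regions, 4931408C20Rik and Oog3, had a saline mean of 20 or more.

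limma on log2(value + 1), fitted over all 381 regions and adjusted over the 14119 tests that the authors' adjusted p-values imply, called 0 of the 95 regions and 0.0% of the table. All 95 had an unadjusted p under 0.05, and the smallest adjusted p was 0.053 (limma). Among the named genes the difference on the log2(value + 1) scale was 2.05 ± 0.426 (SE) at Anks1b and 1.44 ± 0.226 at Slc25a24, and -2.77 ± 0.780 at Lrp1b and -1.79 ± 0.255 at D930032P07Rik. edgeR's quasi-likelihood test on the recovered reads, with the same adjustment, called 80 of the 95, against 75.1% of the table. It called 48 gained regions, 50.5% of the 95, where the table had 40.4% of its regions called in that direction. The 32 lost regions it called were 33.7% of the 95, where the table had 34.6%. The 15 not called were Skint6, Cdk5rap2, Mettl8, 2210408I21Rik, Esrrg, Cpa6, Olfr1105, Trhr, Ccdc178, Pdgfd, C2cd2 and Elmod2 of the gained and Bcas3, Spata17 and Cdk14 of the lost. With 3 libraries a group, 0.1 is the smallest p of an exact two-sided permutation test.

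The edgeR calls depended on scaling and on single libraries. With TMM factors taken over the table it called 41 of the 95, against 48.6% of the table. These were 9 gained regions, 9.47% of the 95 against 13.6% of the table, and 32 lost regions, 33.7% against 34.9%. Most calls of gained regions thus fell away, and calls of lost regions stayed as many. TMM assumes that most regions do not differ, but the table holds only regions selected as different, 58.5% of them gained. The drop therefore cannot show whether the gained regions are less sound. Without cocaine library 2 it called 47 of the 95, against 44.4% of the table. Without any one of the other 5 libraries it called 0 of the 95 and 0 of the 381, while 94 or 95 of the 95 had an unadjusted p under 0.05 (edgeR). Adjusted over the table alone, limma called 94 of the 95 against 90.8% of the table, on a table already selected for difference. These were 60 gained regions, 63.2% of the 95 against 53.0% of the table, and 34 lost regions, 35.8% against 37.8%. edgeR with that adjustment called 95 of the 95, against 91.3% of the table.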

How the data were processed

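Cocaine and saline libraries of an anti-WSTF ChIP-seq were compared in a table of differential regions that its authors deposited. Per the submitters' processing notes, CASAVA 1.8 and mm9 were used, and the table's name gives diffReps with a negative binomial test. For the aligner, the read filters and the settings of diffReps, nothing further was stated by these sources. Deposited values are a normalized signal (read count) per region and library, with the authors' log2 fold change, p-value and adjusted p-value. A deposited enrichment ratio was not used because its reference is not stated by the authors. The header has 26 names for 30 cells in a line.

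The worth of 1 read was found for each library from the steps between its values, and every value was whole within 0.1 read. The authors' adjusted p-values match a Benjamini-Hochberg adjustment over 14119 tests within 0.1% at 381 of 381 regions. Signals were tested with limma 3.58.1 on log2(value + 1) and, as an alternative, recovered reads with edgeR 4.0.16 (quasi-likelihood), in R 4.3.3, over all 381 regions. p-values were adjusted over 14119 tests, with a threshold of 0.05. Both were run on simulated counts with known changes. Passing required no call of wrong sign by either, and a recovered slope near the true one for edgeR alone. How many changed regions limma called was not a condition of passing. Tables and intervals were made in Python 3.11.15. Fold is the ratio of group means.

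Libraries were grouped by their labels, which describe separate biological triplicates of pooled punches. The genes named by rule were the 12 gained and the 12 lost of smallest authors' p, every promoter-class gene, genes with several regions, up to 4 of each list, the 4 longest and 4 shortest, those whose groups overlap, and the 4 gene body regions nearest to each gene end. Other members are named so that each is accounted for, except 1 that is counted but not reported here by name. Members and lists were chosen with earlier results of these data known. Of 93 symbols, 89 matched the GRCm38.p6 RefSeq table directly, 3 by synonym and 1, Klra15, not at all, and it gave names and start sequences only. The alternatives were other pseudocounts, filters, adjustments, scalings and leaving out each library. Tests by edgeR without a library, its adjustment over the table alone, and the filters on high counts and on overlap were added after seeing the data.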

Additional observations from a re-analysis of the deposited data

How the results depend on the processing

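The count of called regions changed most. limma called 0 of the 95 with either pseudocount and without any 1 library. edgeR on recovered reads called 80, or 41 with TMM factors, which were taken over these selected regions alone. Adjusted over the 381 regions alone, edgeR called 95 (91.3% of the table) and limma 94 (90.8%). Leaving out 1 library, the counts of edgeR ran from 0 to 47. Of the 60 gained and 35 lost regions, 31 and 2 had a higher group mean of at least 20. Keeping gene body regions alone leaves 0 of the 2 upstream regions by construction, since both are of promoter class. The median fold of the named regions, 2.92, ran from 2.79 to 3.23 when 1 library was left out. Directions cannot turn where groups do not overlap, so an unchanged direction says nothing about stability. The median lost region held 9 reads in cocaine, which bounds the precision of its fold. No paired analysis was possible because no column name ties a library to its numbered sample.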
